A study of Homo sapiens with 6 samples.

Results

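The genes described here are the ligands, receptors and SMAD proteins of the transforming growth factor beta (TGF-beta) pathway, a fixed set of symbols: TGFB1, TGFB2, TGFBR1, TGFBR2, TGFBR3, SMAD2, SMAD3, SMAD4, SMAD6 and SMAD7. They were found by symbol in a table of read counts, where all 10 had an entry among 27394 gene names. The libraries came from Huh7, an established human hepatocellular carcinoma line. In 3 libraries the cells carried a short hairpin RNA (shRNA) that lowers CTSV, the gene of the lysosomal cysteine protease cathepsin V, and in 3 libraries they carried a control shRNA and are labelled wild type. Both groups were grown in the same medium with serum and sampled at matched times, and mRNA was sequenced. How many shRNAs were used, their sequences and whether a line is a clone are not stated. The labels do not say either whether libraries of 1 group are separate cultures, so the p-values reflect the scatter of these 6 libraries, and that scatter may be technical.

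TGF-beta ligands are secreted in a latent form, held by latent TGF-beta binding proteins until they are freed. The free ligand is bound by TGFBR2, which recruits and phosphorylates TGFBR1, and TGFBR1 in turn phosphorylates SMAD2 and SMAD3, which join SMAD4 and enter the nucleus. SMAD6 and SMAD7 act against this chain and are themselves induced by signals of the family, a feedback loop. In liver the pathway is known for halting hepatocyte growth and for driving scar formation by stellate cells. Only mRNA was measured here, so neither free ligand nor phosphorylated SMAD protein enters the values below.

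Of the 10 genes, 5 fell in CTSV shRNA cells, none rose and 5 were not called. None rose at an unadjusted p under 0.05 either, or with DESeq2. The genes that fell were both ligands (TGFB1 and TGFB2), both signalling receptors (TGFBR1 and TGFBR2) and the inhibitory SMAD6. TGFB2 had the most negative log2 fold change of the 10. The signal-carrying SMAD2, SMAD3 and SMAD4, the coreceptor TGFBR3 and the inhibitory SMAD7 were not called. Calls were made where edgeR's quasi-likelihood test gave an adjusted p under 0.05 (Benjamini-Hochberg, over 15968 tested genes), and "rose" and "fell" are kept for such calls. Falls were common in these cells: 21.6% of all tested genes fell and 18.7% rose. Among the 9440 tested genes with a mean of at least 10 CPM (counts scaled to a common library size), a level all 10 members reach, 33.4% fell and 19.7% rose. The median log2 fold change, CTSV shRNA over control shRNA throughout, was -0.17 over the 10 members, against 0.02 over all tested genes and -0.07 over the 9440.

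The stretches just upstream of 3 members are shown, because TGFB2 and TGFB1 are both ligands but differ in the size of their change, and because SMAD6 is the inhibitory member that fell. Each is the 250 bases before the transcription start that RefSeq gives on GRCh38.p14, written 5′ to 3′ on the gene's strand. They lie at chr1:218345086-218345335 (plus strand) for TGFB2, chr19:41353923-41354172 (minus strand) for TGFB1 and chr15:66701986-66702235 (plus strand) for SMAD6. Capitals mark motif matches.
TGFB2: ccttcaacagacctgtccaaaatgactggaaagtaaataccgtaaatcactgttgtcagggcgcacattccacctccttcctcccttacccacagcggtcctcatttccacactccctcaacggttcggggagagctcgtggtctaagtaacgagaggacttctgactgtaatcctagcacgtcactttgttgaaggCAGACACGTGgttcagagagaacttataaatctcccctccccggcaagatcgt
TGFB1: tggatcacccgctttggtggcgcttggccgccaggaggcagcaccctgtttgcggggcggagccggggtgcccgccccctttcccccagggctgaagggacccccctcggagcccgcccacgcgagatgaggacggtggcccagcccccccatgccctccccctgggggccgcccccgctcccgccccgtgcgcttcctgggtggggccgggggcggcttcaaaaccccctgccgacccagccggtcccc
SMAD6: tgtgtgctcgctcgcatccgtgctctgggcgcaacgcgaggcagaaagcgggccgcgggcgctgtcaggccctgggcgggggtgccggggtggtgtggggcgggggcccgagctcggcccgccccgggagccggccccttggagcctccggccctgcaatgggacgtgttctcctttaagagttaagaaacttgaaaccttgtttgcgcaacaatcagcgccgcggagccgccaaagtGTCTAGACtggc

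A search on both strands covered the SMAD palindrome GTCTAGAC, the CAGA box CAGACA, the AP-1 motif TGANTCA, the E-box CACGTG and the GC-rich SMAD element GGCGCC. The SMAD6 window holds the palindrome 12 to 5 bases before the RefSeq start. That start (base 66702236) lies downstream of the one in the count table (66702228), so the palindrome spans the latter. Of 35116 RefSeq windows of this length, 0.182% hold those letters. The TGFB2 window holds a CAGA box 53 to 48 bases before the start, and an E-box overlaps its last bases. CAGA boxes occur in 13.6% of windows and this E-box in 6.34%. The TGFB1 and TGFBR3 windows, both TGFBR2 windows and all 3 SMAD7 windows hold none of the 5 motifs. This says only that these letters are not in these windows. Not every RefSeq start lies near the start in the count table. That of TGFBR3 (base 91886151, minus strand) lies inside the gene as placed there, which starts at 91906335. Members that were not called had matches too. Windows of SMAD2 and SMAD4 hold the GC-rich element, and windows of SMAD3 hold the CAGA box, AP-1 motif, E-box and GC-rich element. The SMAD3 windows with the AP-1 motif and the CAGA box precede starts at 67125742 and 67138021. Both starts lie inside the gene as placed in the count table, where it starts at 67063763. Windows of TGFBR1, which fell, hold the CAGA box and the GC-rich element. The AP-1 motif occurs in 6.57% of all windows and the GC-rich element in 16.4%. Such a match is a description of the sequence and not evidence that a factor binds there. All 10 members had a RefSeq start, with 25 windows in all.

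The libraries held 16340854, 16280506 and 17930442 counts in CTSV shRNA cells and 18106207, 16975502 and 16258803 in control shRNA cells. CTSV itself was at 18.4, 16.0 and 16.3 CPM in CTSV shRNA libraries, against 42.3, 44.5 and 41.0 CPM in control shRNA libraries, a fall to 0.396 of the control level (adjusted p = 7.2e-14). Mitochondrial genes took 11.4% to 11.8% of counts in CTSV shRNA libraries, against 9.09% to 9.51% in control shRNA libraries. Without these genes all 10 members kept their call. All 7 hepatocyte markers sought (ALB, AFP, APOA1, TTR, HNF4A, SERPINA1 and TF) were measured, and their summed level was 30230 to 31318 CPM in CTSV shRNA libraries and 24020 to 24901 CPM in control shRNA libraries. Of these 7, 5 rose, TTR fell (-0.19, adjusted p = 0.0098) and APOA1 was not called (0.05), and ALB and AFP made up most of the sum. The part of this shift in the results below was not tested. Of markers of stellate cells and fibroblasts, 4 of 8 were measured, at a sum of 53.1 to 57.9 CPM in CTSV shRNA libraries and 46.4 to 52.3 CPM in control shRNA libraries. LUM made up most of that sum, at means of 41.5 CPM in CTSV shRNA libraries and 36.0 CPM in control shRNA libraries. LUM rose (0.21, adjusted p = 0.049) and the other 3 were not called. For endothelium, 2 of 7 markers were measured, at 19.6 to 21.8 CPM in CTSV shRNA libraries against 18.1 to 23.5 CPM in control shRNA libraries. For leukocytes 1 of 7 was measured, at 0.055 to 0.424 CPM in CTSV shRNA libraries and 0 to 0.0623 CPM in control shRNA libraries, and the other markers were not analysed here.

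Both ligand genes fell, by unequal amounts. TGFB2 (ENSG00000092969, plus strand, chr1:218346235-218444619 on hg38) encodes the isoform that binds TGFBR2 poorly unless TGFBR3 presents it. It had 266, 215 and 303 raw counts in CTSV shRNA libraries, against 570, 512 and 427 in control shRNA libraries. Scaled with TMM normalization, these were 16.1, 13.0 and 16.7 CPM in CTSV shRNA libraries, against 32.0, 30.8 and 26.6 CPM in control shRNA libraries. Every CTSV shRNA library was below every control shRNA library. The log2 fold change was -0.96 (SE 0.112, 95% interval -1.19 to -0.74, adjusted p = 7.4e-09), which puts the gene at 0.513 of its control level. Of the 3451 genes that fell, 166 had a more negative fold change than TGFB2. Falls of 2-fold or more were made by 0.958% of all tested genes and by none of the 10 members.

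TGFB1 (ENSG00000105329, minus strand, chr19:41301587-41353911), the isoform made most widely in the body, had 37.7, 39.2 and 42.2 CPM in CTSV shRNA libraries, against 46.9, 51.4 and 46.1 CPM in control shRNA libraries. These groups did not overlap either, but the distance between them was smaller. Its log2 fold change was -0.28 (SE 0.0800, 95% interval -0.44 to -0.11, adjusted p = 0.0053). The interval of TGFB1 lies wholly above that of TGFB2. Per kilobase of a representative transcript, TGFB2 was at 0.238, 0.185 and 0.220 of the level of TGFB1 in CTSV shRNA libraries, against 0.379, 0.334 and 0.322 in control shRNA libraries. TGFB1 was thus the more abundant ligand transcript in all 6 libraries, and the share of TGFB2 was lower in each CTSV shRNA library. No test of the difference between the ligands was run.

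The ligand genes have neighbours whose reads could be mixed with theirs, since neither the annotation nor the strand setting of the counting is stated. TGFB2 shares 1371 exonic bases with TGFB2-OT1 on the same strand, which has no entry in the count table. The antisense gene TGFB2-AS1 (minus strand, chr1:218344196-218345678) covers the RefSeq start of TGFB2, which lies 899 bases upstream of the start in the count table. TGFB2-AS1 ends before the start in the count table, so the 2 genes share no bases as placed there. It had 24, 9 and 21 counts in CTSV shRNA libraries, against 57, 33 and 42 in control shRNA libraries, and fell as well (log2 fold change -1.30, SE 0.398, adjusted p = 0.0082). It had fewer counts than TGFB2 in each library. TGFB1 shares 215 exonic bases with HNRNPUL1 on the opposite strand, an RNA-binding protein gene of higher level per kilobase, which had a log2 fold change of -0.15 (SE 0.0467, adjusted p = 0.011).

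**Figure D1:**
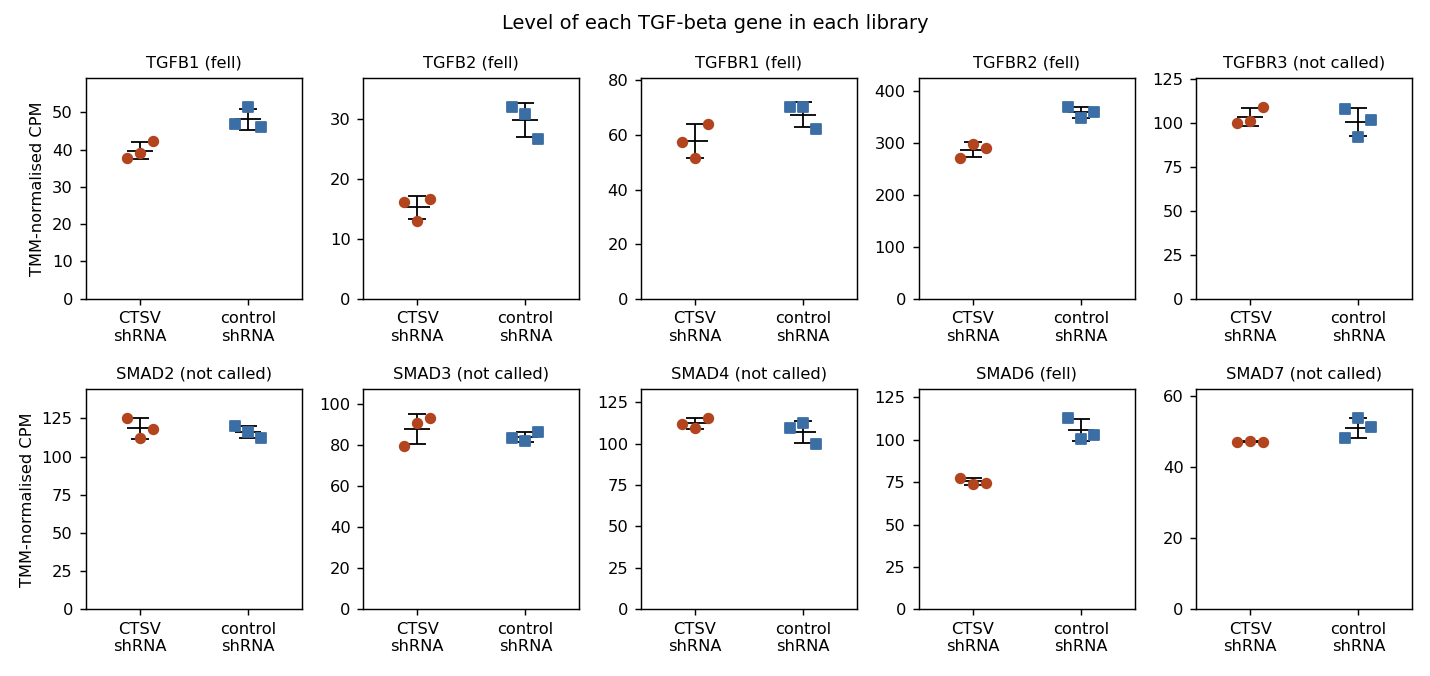
TMM-normalised CPM of each of the 10 genes (y axis, from 0, scaled per gene) in the 3 CTSV shRNA libraries (circles, left) and the 3 control shRNA libraries (squares, right), with the mean and SD of each group as bars. The groups are apart, with CTSV shRNA lower, for TGFB1, TGFB2, TGFBR2, SMAD6 and SMAD7, and overlap for the other 5.

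Both signalling receptors fell and the coreceptor was not called. TGFBR2 (ENSG00000163513, plus strand, chr3:30606502-30694142), the receptor kinase that first binds the ligand, had 271.0, 298.5 and 290.6 CPM in CTSV shRNA libraries, against 368.6, 347.8 and 359.8 CPM in control shRNA libraries. Every CTSV shRNA library was lower. The log2 fold change was -0.32 (SE 0.0473, 95% interval -0.42 to -0.23, adjusted p = 7.6e-07).

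TGFBR1 (ENSG00000106799, plus strand, chr9:99104038-99154192), the kinase that phosphorylates SMAD2 and SMAD3, had 57.3, 51.7 and 64.1 CPM in CTSV shRNA libraries, against 70.2, 70.1 and 62.2 CPM in control shRNA libraries. The highest CTSV shRNA library lay above the lowest control shRNA library, so the groups overlapped. Its log2 fold change was -0.22 (SE 0.0752, 95% interval -0.38 to -0.07, adjusted p = 0.016). This call depended on single libraries. Without CTSV shRNA replicate 2 the log2 fold change was -0.15 (adjusted p = 0.15), without control shRNA replicate 1 it was -0.20 (adjusted p = 0.068) and without control shRNA replicate 2 it was -0.20 (adjusted p = 0.053). Offsets that remove a trend of fold change with gene level also ended it (-0.16, adjusted p = 0.092).

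TGFBR3 (ENSG00000069702, minus strand, chr1:91680343-91906335) encodes betaglycan, a coreceptor without kinase activity that presents TGF-beta2 to TGFBR2. It had 99.6, 100.7 and 108.8 CPM in CTSV shRNA libraries, against 107.8, 91.9 and 101.5 CPM in control shRNA libraries, with overlapping groups. The log2 fold change was 0.04 (95% interval -0.09 to 0.16, adjusted p = 0.66). The ratio of TGFBR2 to TGFBR1 per kilobase was 6.09, 7.44 and 5.84 in CTSV shRNA libraries and 6.77, 6.39 and 7.46 in control shRNA libraries, so the balance of the signalling receptors overlapped between groups.

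The SMADs that carry the signal were not called. SMAD2 (ENSG00000175387, minus strand, chr18:47808957-47931146) and SMAD3 (ENSG00000166949, plus strand, chr15:67063763-67195195) are the receptor-activated SMADs of TGF-beta and activin. SMAD2 had 125.3, 111.9 and 118.3 CPM in CTSV shRNA libraries, against 120.0, 116.0 and 112.4 CPM in control shRNA libraries. SMAD3 had 79.7, 91.1 and 93.4 CPM in CTSV shRNA libraries, against 83.6, 81.8 and 86.5 CPM in control shRNA libraries. SMAD4 (ENSG00000141646, plus strand, chr18:51028394-51085045), the shared partner of TGF-beta and bone morphogenetic protein (BMP) signals, had 111.5, 109.2 and 115.5 CPM in CTSV shRNA libraries, against 109.1, 112.3 and 99.6 CPM in control shRNA libraries. In all 3 genes the groups overlapped.

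The log2 fold changes of these SMADs were close to 0 as scaled here, and their intervals cover the scatter of libraries, not the choice of scaling. SMAD2 was at 0.03 (95% interval -0.09 to 0.14, adjusted p = 0.72), SMAD3 at 0.07 (-0.06 to 0.20, adjusted p = 0.41) and SMAD4 at 0.07 (-0.05 to 0.18, adjusted p = 0.38). SMAD2 turned direction and fell when fold changes were adjusted for length and GC content. It was at -0.24 with the merged-exon length of each gene and the GC content of its longest transcript (adjusted p = 7.5e-04). With the length and GC content of a representative transcript it was at -0.20 (adjusted p = 0.0031). SMAD4 rose with offsets for gene level (0.15, adjusted p = 0.033) and was at -0.0987 and -0.12, not called, with the length and GC offsets. SMAD3 (-0.0185) and the coreceptor TGFBR3 (-0.0853) also had the opposite sign over merged exons, uncalled. SMAD3 shares 182 exonic bases with the antisense gene AC087482.1, which had 109, 60 and 107 counts in CTSV shRNA libraries, against 42, 50 and 49 in control shRNA libraries. SMAD4 shares 967 exonic bases with AC091551.1 on the same strand, which has no entry in the count table.

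The inhibitory SMADs differed from each other in call. SMAD6 (ENSG00000137834, plus strand, chr15:66702228-66782848), which acts mainly against BMP receptors, had 77.6, 74.1 and 74.3 CPM in CTSV shRNA libraries, against 112.8, 100.6 and 103.0 CPM in control shRNA libraries. The CTSV shRNA libraries lay close together and far below the lowest control shRNA library. The log2 fold change was -0.49 (SE 0.0611, 95% interval -0.61 to -0.36, adjusted p = 4.2e-08), a fall to 0.714 of the control level. SMAD7 (ENSG00000101665, minus strand, chr18:48919853-48950711), which blocks TGF-beta and BMP receptors alike, had 47.0, 47.3 and 47.1 CPM in CTSV shRNA libraries, against 48.2, 53.9 and 51.3 CPM in control shRNA libraries. Its groups were apart by a small gap and it was not called (log2 fold change -0.12, 95% interval -0.27 to 0.04, adjusted p = 0.22).

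In all, 5 of the 10 members had every CTSV shRNA library below every control shRNA library, a pattern shown by 25.0% of all tested genes and by 37.2% of those with a mean of at least 10 CPM. Per kilobase, SMAD6 was at 0.550, 0.522 and 0.525 of SMAD7 in CTSV shRNA libraries, against 0.780, 0.621 and 0.669 in control shRNA libraries. The summed inhibitory SMADs were at 0.754, 0.690 and 0.667 of the summed SMAD2, SMAD3 and SMAD4 in CTSV shRNA libraries, against 0.867, 0.896 and 0.864 in control shRNA libraries. Both ratios were lower in each CTSV shRNA library than in any control shRNA library. They follow from the members' own values and carry no test. The size of both ratios rests on the transcripts chosen. SMAD7 was scaled to 1278 bases (its longest transcript has 4428) and SMAD6 to 3835 (longest 5198). In CPM, without length, SMAD6 stood above SMAD7. The means were 75.3 against 47.2 CPM in CTSV shRNA libraries and 105 against 51.1 CPM in control shRNA libraries.

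**Figure D2:**
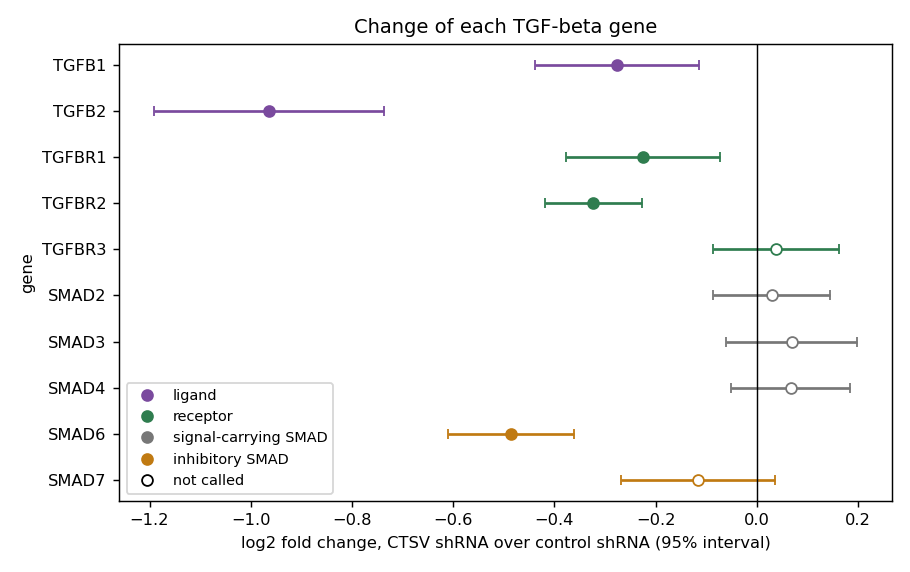
Log2 fold change of each gene, CTSV shRNA over control shRNA (x axis), with its 95% interval from edgeR as the bar, coloured by role and open where the gene was not called. TGFB2 at -0.96 and SMAD6 at -0.49 lie lowest, and the intervals of SMAD2, SMAD3, SMAD4, SMAD7 and TGFBR3 cross 0; SMAD2 is at -0.24 and called when adjusted for length and GC.

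Per kilobase of a representative transcript, TGFBR2 was the most abundant member and TGFB2 the least in both groups. TGFBR2 averaged 62.3 ± 3.08 CPM per kilobase in CTSV shRNA libraries and 77.9 ± 2.26 in control shRNA libraries (SD, n = 3 each), and TGFB2 averaged 3.07 ± 0.394 in CTSV shRNA libraries and 5.99 ± 0.568 in control shRNA libraries. In CTSV shRNA libraries the order from the top was TGFBR2, SMAD3 (57.5), SMAD7 (36.9), TGFBR3 (26.2), SMAD6 (19.6), TGFB1 (14.3), SMAD4 (13.2), SMAD2 (9.81), TGFBR1 (9.73) and TGFB2, in mean CPM per kilobase. The libraries of TGFBR2 and SMAD3 overlapped there, as did those of SMAD2 and TGFBR1. In control shRNA libraries SMAD6 (27.5) stood above TGFBR3 (25.6), with overlapping libraries, and TGFBR1 (11.4) stood above SMAD2 (9.62) and overlapped SMAD4 (12.6). The order rests on the transcript chosen, since SMAD3 was scaled to 1530 bases and its longest transcript has 6247, and SMAD7 to 1278 bases against 4428.

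**Figure D3:**
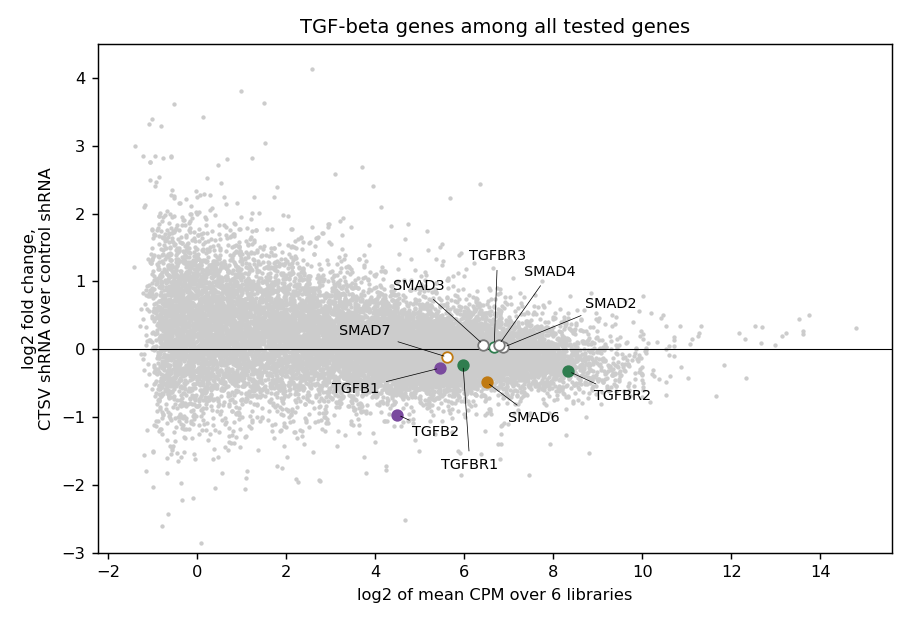
Log2 fold change, CTSV shRNA over control shRNA (y axis), against the log2 of the mean CPM over the 6 libraries (x axis) for all 15968 tested genes (grey) and the 10 members (coloured by role as in the plot of fold changes, open where not called). The members lie in the middle and upper range of levels, where 33.4% of genes fell, and TGFB2 lies nearest the lower edge of the cloud.

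The share of falls among all calls depends on scaling. As reported, 53.6% of called genes fell (3451 against 2982 that rose). With offsets for length and GC content, 67.5% did (4717 against 2268), and 6 members fell, SMAD2 being added. TGFB1, TGFB2, TGFBR2 and SMAD6 kept their call in all 16 alternatives tried. Over these, the log2 fold change of TGFB2 ran from -1.13 to -0.87 and that of SMAD6 from -0.54 to -0.41. In the authors' deposited table, whose fold changes are control over knockdown, TGFB2 had a log2 fold change of 0.98 and SMAD6 of 0.50, and the 5 members with an adjusted p under 0.05 were TGFB1, TGFB2, TGFBR1, TGFBR2 and SMAD6.

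**Figure D4:**
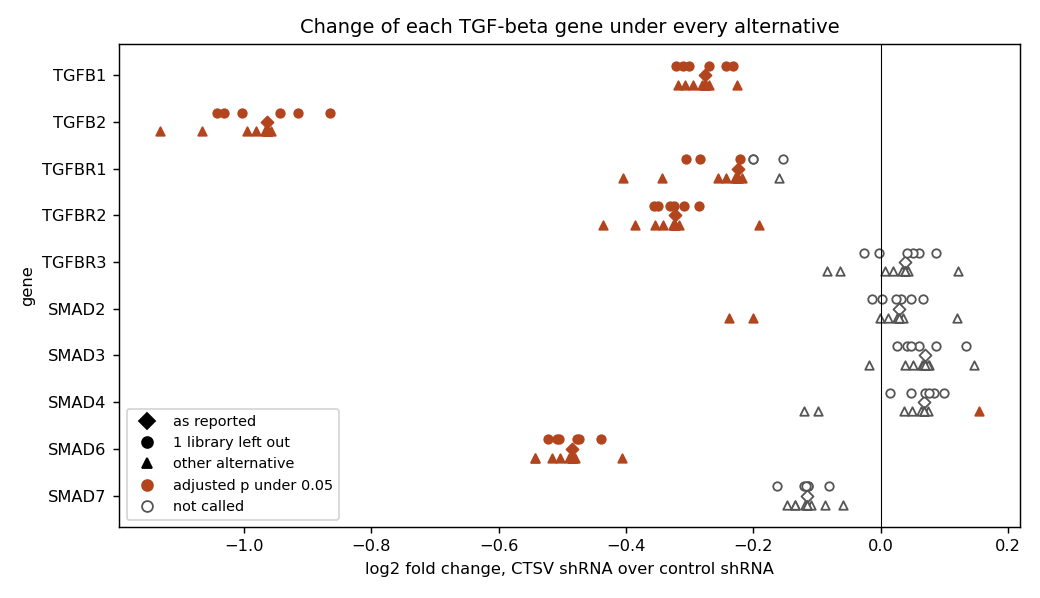
Log2 fold change of each gene, CTSV shRNA over control shRNA (x axis), as reported (diamonds), with 1 library left out (circles) and under the other alternatives (triangles), filled where the adjusted p was under 0.05. TGFB1, TGFB2, TGFBR2 and SMAD6 stay filled throughout, TGFBR1 does not, and SMAD2 has filled triangles at -0.24 and -0.20 from the length and GC offsets.

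The genes around the 10 members were taken from lists of the wider pathway. In the list of other ligands of the family, which also holds the procollagen protease BMP1, 11 genes were tested, of which 2 fell, none rose and 9, BMP1 among them, were not called (median log2 fold change 0.05, against 0.02 for all tested genes). Of all tested genes 21.6% fell and 18.7% rose. None rose at an unadjusted p under 0.05 in edgeR, or with DESeq2. INHBE, an activin subunit gene made in liver, had 16.0, 16.5 and 16.9 CPM in CTSV shRNA libraries, against 48.7, 47.2 and 43.7 CPM in control shRNA libraries. It fell to 0.354 of the control level (adjusted p = 1.6e-15), against 0.513 for TGFB2. BMP2, a BMP ligand, fell by 0.14 (adjusted p = 0.033). That call did not hold without any 1 of the CTSV shRNA libraries (-0.14, -0.14 and -0.15, adjusted p = 0.073, 0.093 and 0.061), without control shRNA replicate 2 (-0.11, adjusted p = 0.13) or 3 (-0.15, adjusted p = 0.065), or with gene-level offsets (-0.05). GDF11 (-0.16), BMP4 (0.15) and BMP1 (-0.20), which is no ligand, were not called. GDF11 fell with length and GC offsets (-0.27, adjusted p = 0.0014, and -0.31, adjusted p = 2.7e-04, with a representative transcript) and with all deposited entries (-0.19, adjusted p = 0.020).

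Among 12 other receptors and coreceptors tested, 3 rose, 1 fell and 8 were not called (median 0.05), beside the 18.7% of all tested genes that rose and the 21.6% that fell. BAMBI, a decoy receptor that lacks the kinase domain, had 93.6, 88.1 and 81.4 CPM in CTSV shRNA libraries, against 130.2, 130.5 and 126.9 CPM in control shRNA libraries, and fell by 0.56 (SE 0.0585, adjusted p = 7.8e-10). The activin receptors ACVR1B (0.25, adjusted p = 0.0020) and ACVR1C (0.43, adjusted p = 0.0018) and the BMP receptor BMPR2 (0.22, adjusted p = 0.0025) rose. With length and GC offsets over merged exons the calls of ACVR1C (0.25) and BMPR2 (0.03) were lost. BMPR1A (-0.07), ACVR1 (-0.16) and ACVR2B (0.08) were not called, although ACVR1 fell without control shRNA replicate 3 (-0.25, adjusted p = 0.035). With length and GC offsets BMPR1A (-0.23, adjusted p = 0.0087) and ACVR1 (-0.23, adjusted p = 0.025) fell, and with gene-level offsets ACVR2B rose (0.16, adjusted p = 0.039). The SMADs of the BMP branch, SMAD1 (-0.29), SMAD5 (0.09) and SMAD9 (0.15), were not called, with SMAD1 at an unadjusted p of 0.045 in edgeR's test. SMAD1 fell with gene-level offsets (-0.37, adjusted p = 0.033) and with all deposited entries (-0.32, adjusted p = 0.042). It also fell with length and GC offsets (-0.40, adjusted p = 0.018, and -0.34, adjusted p = 0.045, with a representative transcript). SMAD5 rose with gene-level offsets (0.19, adjusted p = 0.0065).

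Of 18 tested genes that hold, free or trap ligands, 7 fell, 5 rose and 6 were not called (median 0.04). Over all tested genes 21.6% fell and 18.7% rose, so calls in both directions are common. Of the latent TGF-beta binding proteins, LTBP1 was at 64.4, 64.7 and 66.0 CPM in CTSV shRNA libraries, against 102.7, 104.0 and 105.8 CPM in control shRNA libraries, and LTBP3 at 86.7, 80.1 and 81.4 CPM in CTSV shRNA libraries, against 49.3, 51.9 and 46.8 CPM in control shRNA libraries. LTBP1 therefore fell (-0.68, adjusted p = 1.4e-11) and LTBP3 rose (0.74, adjusted p = 3.5e-11), each with groups far apart. THBS1, whose product thrombospondin-1 can free latent TGF-beta, had 69.6, 68.1 and 75.6 CPM in CTSV shRNA libraries, against 156.4, 151.5 and 158.7 CPM in control shRNA libraries, and fell (log2 fold change -1.13, adjusted p = 7.3e-18). ITGAV, the alpha-v integrin subunit (-0.32), and FURIN, the protease that cleaves the precursor (-0.24), also fell, FURIN not with gene-level offsets (-0.09). Among ligand traps, FST (-0.49) and FSTL3 (-0.38), which bind activins, fell. Of those that bind BMPs, TWSG1 rose (0.25), while NOG, named after its values were seen, fell (-1.46, adjusted p = 0.011) at 16, 4 and 15 counts in CTSV shRNA libraries, against 27, 31 and 37 in control shRNA libraries. NOG was not called without CTSV shRNA replicate 2 (-1.08, adjusted p = 0.091) or control shRNA replicate 3 (-1.30, adjusted p = 0.061). Of other BMP binders in the list, CHRD (0.31), BMPER (0.33) and SOSTDC1 (0.32) were not called. FSTL3 was not called without control shRNA replicate 2 (-0.26, adjusted p = 0.11), and TWSG1 was not called without CTSV shRNA replicate 1 (0.17, adjusted p = 0.13) or control shRNA replicate 1 (0.22, adjusted p = 0.065), nor with length and GC offsets (0.12, adjusted p = 0.22, and 0.06, adjusted p = 0.56, with a representative transcript). The 5 rises became 2 without CTSV shRNA replicate 1 and 3 without CTSV shRNA replicate 3 or control shRNA replicate 1.

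Of 32 tested intracellular regulators of SMADs, 8 fell, 2 rose and 22 were not called (median -0.01), beside the 21.6% of all tested genes that fell and the 18.7% that rose. The sorting nexin gene SNX6 was at 40.3 ± 2.44 CPM in CTSV shRNA libraries and 65.4 ± 5.25 CPM in control shRNA libraries (SD, n = 3 each), and fell by 0.70 (adjusted p = 2.7e-09). The deubiquitinase gene UCHL5 (-0.59), the corepressor gene TGIF1 (-0.52), the receptor-binding STRAP (-0.27) and FKBP1A, which holds TGFBR1 inactive (-0.23), also fell, FKBP1A not with gene-level offsets (-0.12). SKIL (-0.09), a corepressor, and the ubiquitin ligases NEDD4L (-0.12) and WWP1 (-0.02) were not called. All 3 fell with length and GC offsets (SKIL -0.29, NEDD4L -0.31 and WWP1 -0.13, adjusted p = 3.5e-06, 2.6e-06 and 0.040). NEDD4L also fell without mitochondrial genes (-0.13, adjusted p = 0.049) and with all deposited entries (-0.15, adjusted p = 0.013). The 2 rises became 0 without CTSV shRNA replicate 2 or 3 or control shRNA replicate 1, and 1 without control shRNA replicate 2. With length and GC offsets 14 of the 32 fell, in a fit where 4717 of all 15968 tested genes fell, against 3451 as reported.

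Among genes known as targets of TGF-beta, 25 were tested, of which 12 fell, 4 rose and 9 were not called. Over all tested genes 21.6% fell and 18.7% rose. The median was -0.48, against 0.02 over all tested genes. Many of these genes answer to other pathways as well. The cyclin-dependent kinase inhibitor gene CDKN2B had 31.6, 31.3 and 29.9 CPM in CTSV shRNA libraries, against 85.0, 92.9 and 89.0 CPM in control shRNA libraries, and fell by 1.52 (adjusted p = 7.6e-19). Its groups were far apart.

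The stress gene GADD45B (-1.05, adjusted p = 8.1e-09), the transcription factor gene BHLHE40 (-0.91, adjusted p = 5.1e-11) and the matrix signalling gene CTGF (-0.40, adjusted p = 1.7e-07) also fell. Matrix genes differed in direction. COL1A2, a collagen I chain, rose by 1.02 (adjusted p = 4.6e-08), at 19.1 ± 1.68 CPM in CTSV shRNA libraries and 9.43 ± 0.711 CPM in control shRNA libraries (SD, n = 3 each). TGFBI, an adhesion protein gene, fell by 0.14 (adjusted p = 0.012), but not without CTSV shRNA replicate 2 (-0.12, adjusted p = 0.072) or with gene-level offsets. FN1, the fibronectin gene, was at 0.09 (adjusted p = 0.029). It was not called without CTSV shRNA replicate 2 (0.08) or 3 (0.07) or control shRNA replicate 1 (0.09) or 2 (0.06). Nor was it called with DESeq2 (0.09, adjusted p = 0.077) or with all deposited entries (0.06, adjusted p = 0.26). With length and GC offsets over merged exons it had the opposite direction, as a called fall (-0.10, adjusted p = 0.0055). With those of a representative transcript it was at -0.03 and not called (adjusted p = 0.39). The 4 rises among targets became 2 without control shRNA replicate 2.

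Of 9 tested targets of the BMP branch, 5 fell, none rose and 4 were not called (median -0.45). None rose at an unadjusted p under 0.05 in edgeR, or with DESeq2. ID1, a helix-loop-helix inhibitor of differentiation factors, had 241.4, 227.2 and 240.0 CPM in CTSV shRNA libraries, against 313.2, 338.0 and 315.4 CPM in control shRNA libraries, and fell by 0.45 (adjusted p = 1.3e-09). ID3 fell by 0.47 (adjusted p = 3.3e-08). HAMP, the gene of the liver iron hormone hepcidin, had 10.9, 9.39 and 6.38 CPM in CTSV shRNA libraries, against 26.5, 25.9 and 16.3 CPM in control shRNA libraries, and fell by 1.37 (adjusted p = 9.5e-09). GATA2 (-0.49) and GATA3 (-0.84) fell, and ID2 (-0.04), ID4 (-0.0025) and RUNX2 (0.16) were not called. The falls in both target lists stand beside the 21.6% of all tested genes that fell and the 33.4% of those of at least 10 CPM, a level that not all targets reach. Rises in these lists, or their absence, stand beside the 18.7% of all tested genes that rose. The lists were not tested as sets.

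**Figure D5:**
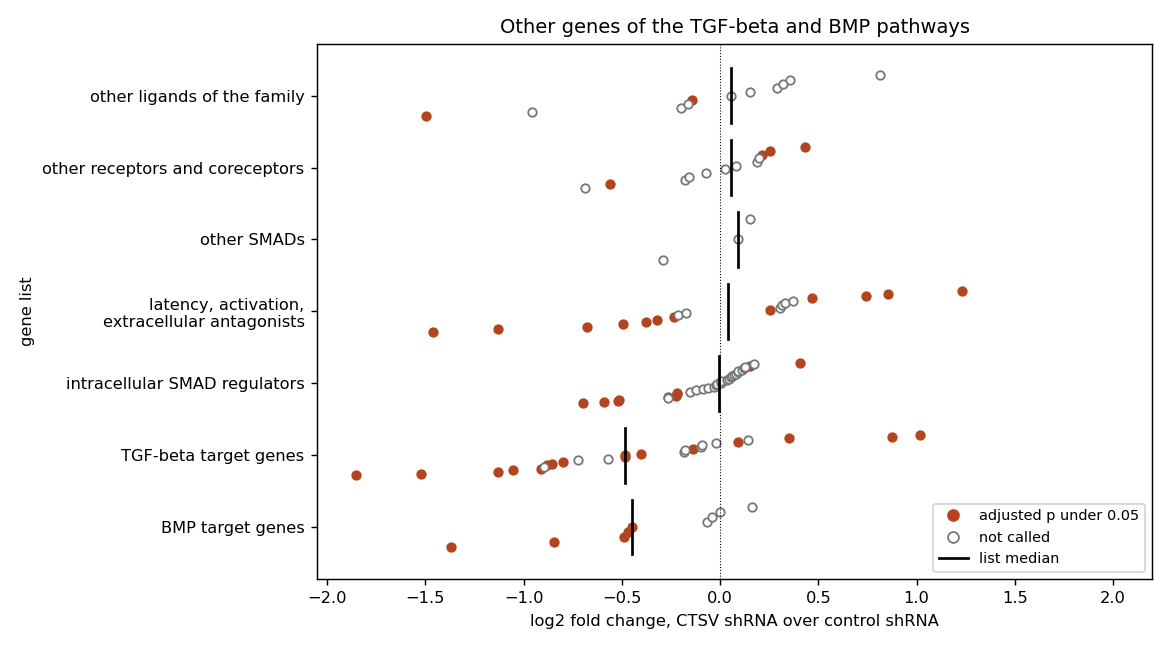
Log2 fold change, CTSV shRNA over control shRNA (x axis), of every tested gene in 7 lists of the TGF-beta and BMP pathways (rows), filled where the adjusted p was under 0.05, with the list median as a vertical bar. The medians of the TGF-beta targets (-0.48) and the BMP targets (-0.45) lie left of 0, and those of the other 5 lists lie between -0.01 and 0.09.

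For TGFB2, the member that fell with the smallest adjusted p, the genes of most similar profile were sought among 12904 tested genes by Pearson's r of log2 CPM over the 6 libraries. They were FAM213A (r = 0.999), the metallothionein gene MT2A (r = 0.999) and AC092171.2 (r = 0.998), all of which fell. Their log2 fold changes were -0.25, -1.90 and -0.37, against -0.96 for TGFB2, since r does not take the size of a change into account. As many as 715 genes had an r above 0.95, since the 6 points are 3 libraries of each group and share their library scaling, so the likeness is a description of a group difference that many genes show.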

How the data were processed

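RNA-seq libraries of Huh7 cells were compared, 3 with an shRNA against CTSV and 3 with a control shRNA. The deposited table gives raw whole-number counts per gene made by the authors. HISAT2, StringTie, SAMtools and hg38 are named, without versions or roles, in the submitters' processing notes. Which tool counted reads, with which annotation and strand setting, is not stated there. The authors' log2 fold changes (control over knockdown) and the authors' p-values in the deposited table were used only where named.

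Of 28915 entries, 1521 copies of repeated names were removed, leaving 27394 names. The test was edgeR 4.0.16 (R 4.3.3), quasi-likelihood, with TMM, filterByExpr, no covariate and Benjamini-Hochberg adjustment. The script was tested on simulated data. The biological coefficient of variation was 6.87%. Levels per kilobase use a consensus coding (CCDS) transcript of median length per gene from GENCODE v29. Profiles were compared with log2 CPM at a prior count of 2.

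The members and lists were chosen with earlier results of these data known. Named genes are the members, CTSV, up to 5 called genes of smallest adjusted p and 3 further genes of highest level per kilobase in each list, and the 3 genes most like the member with the smallest adjusted p. A gene chosen by this rule is not reported here. Alternatives were RLE factors, no mitochondrial genes, loess offsets (span 0.5) for gene level or length and GC, no count filter, a minimum mean CPM of 1, a block for the replicate number, DESeq2 1.42.0, all entries, and each library left out. Offsets from the representative transcript were added after seeing the data, because merged exons of SMAD2 include a transcript of 34526 bases. The offsets named as over merged exons used the merged-exon length and the GC content of the gene's longest transcript.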

Additional observations from a re-analysis of the deposited data

How the results depend on the processing

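Over 16 alternatives for each of 10 members, 153 of 160 values kept their call or lack of one. TGFBR1 lost its call in 4, as given with its values. With gene-level offsets 1 member, SMAD4, rose. Leaving out 1 library gave 4 to 5 members that fell and none that rose. With length and GC offsets over merged exons the direction reversed, among values called in at least 1 of the fits compared, for SMAD2 (-0.24), USP15 (-0.0880), USP9X (-0.11), ZFYVE16 (-0.16) and FN1 (-0.10). With those of a representative transcript it reversed for SMAD2 (-0.20), BMPR2 (-0.0140), USP15 (-0.0354), USP9X (-0.10), ZFYVE16 (-0.17), EP300 (-0.12), MAP3K7 (-0.17) and FN1 (-0.0297). The cause was not tested. In 9 further member values, called in neither fit, the sign turned: TGFBR3 (-0.0853), SMAD3 (-0.0185) and SMAD4 (-0.0987) over merged exons, TGFBR3 (-0.0644) and SMAD4 (-0.12) with a representative transcript, SMAD2 with all entries (-0.0017) and without CTSV shRNA replicate 1 (-0.0141), and TGFBR3 without CTSV shRNA replicate 3 (-0.0023) or control shRNA replicate 2 (-0.0264).

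With the replicate number as a block, 3490 genes fell and 2996 rose, and the members' count stayed at 5 that fell and 0 that rose. Libraries sharing a number had correlations of deviations of -0.016, 0.045 and 0.14, and not every library correlated best with its own number, so the numbers were not taken as pairs. Over all alternatives 3041 to 4754 genes fell and 2268 to 3453 rose.

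List counts moved by over 1.5 times in these fits. With gene-level offsets, 1 ligand fell (2 as reported), 2 receptors fell (1), 1 of the other SMADs fell and 1 rose (0 each), 3 latency genes rose (5), and 5 SMAD regulators fell and 5 rose (8 and 2). With length and GC offsets over merged exons, 3 receptors fell and 1 rose (1 and 3), 1 of the other SMADs fell, 2 latency genes rose, and 14 SMAD regulators fell and 0 rose. With those of a representative transcript, 3 receptors fell, 1 of the other SMADs fell, 2 latency genes rose, and 16 SMAD regulators fell and 0 rose. Counts over all tested genes moved as well, from 3451 that fell and 2982 that rose as reported. They were 3061 and 2895 with gene-level offsets, 4717 and 2268 over merged exons, and 4754 and 2271 with a representative transcript. Without a count filter 1 ligand and 1 regulator rose. With DESeq2 and with all entries 0 regulators rose, and with all entries 1 of the other SMADs fell.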
